A study of Mus musculus with 24 samples.

Results

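The kidneys of 24 male XLAS mice were divided by how much antibody RNA their libraries held. XLAS, or X-linked Alport syndrome, is a hereditary kidney disease in which the glomerular filter lacks the product of Col4a5, a chain of type IV collagen. All mice were on the B6 background, were 15 weeks old at collection and carried the disease, and by label 13 were HET and 11 were WT for Nbl1, which encodes a secreted inhibitor of bone morphogenetic proteins. Each library is labelled as a separate mouse, and bulk RNA of the kidney was sequenced in 2 batches of 12 libraries, with 6 HET and 6 WT in batch 1 and 7 HET and 5 WT in batch 2. No mouse without the disease is among these samples.

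Within each batch the libraries were ranked by the mean of log2(TPM + 1) of Igkc, Ighm and Jchain, where TPM is the deposited level per gene length and library size. Igkc encodes the constant part of the kappa light chain, Ighm the heavy chain of IgM, and Jchain the peptide that joins IgM and IgA into larger forms. The upper 6 libraries of each batch formed one group and the lower 6 the other, 12 against 12 of 24 libraries. The libraries were thus selected on their measured levels of these 3 genes, so the groups are not groups of the study, and a p-value below says which genes went with this division of these libraries.

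Antibodies are made by cells of the B lineage. A resting B cell carries IgM and IgD on its surface, and after activation it can switch to IgG, IgA or IgE and can mature into a plasma cell, which secretes antibody and devotes much of its RNA to immunoglobulin genes. In chronic kidney disease, lymphocytes and macrophages gather in the interstitium beside fibroblasts and scar matrix. In bulk tissue, fewer cells of a type and less RNA per cell cannot be told apart.

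The ranking score ran from 2.15 to 5.34 in the upper libraries of batch 1 and from 2.42 to 6.23 in those of batch 2. The lower libraries held scores of 1.33 to 2.08 and 1.99 to 2.37. These scores made the groups and are given as a description. In batch 1 the last library inside the upper group was HET replicate 3, at 2.15, and the first outside was HET replicate 4, at 2.08. In batch 2 the last inside was WT replicate 7, at 2.42, and the first outside was WT replicate 9, at 2.37. There was no gap in the scores at the division, and the spread lay within the upper group, where WT replicate 1 of batch 1 and HET replicate 13, WT replicate 10 and WT replicate 8 of batch 2 stood above 5.

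**Figure D1:**
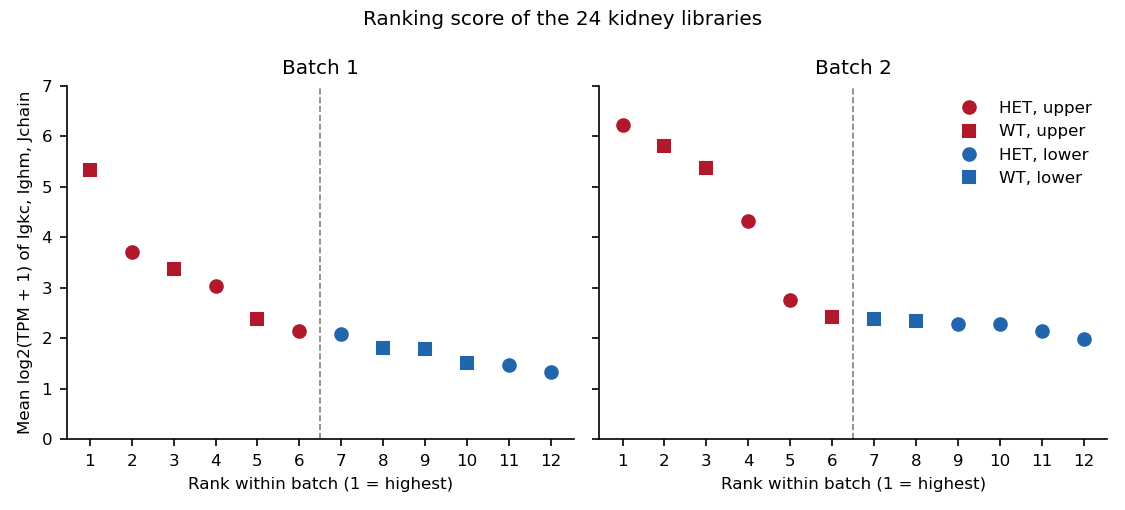
Ranking score of each library (mean log2(TPM + 1) of Igkc, Ighm and Jchain) against its rank within the batch. Circles are HET and squares WT, red marks the upper 6 and blue the lower 6, and the dashed line is the division, which falls between 2.15 and 2.08 in batch 1 and between 2.42 and 2.37 in batch 2.

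Igkc stood at 8.08 TPM at the lowest and 246 at the highest in the upper libraries, and at 3.05 to 8.87 TPM in the lower ones. Ighm spanned 3.70 to 116.5 TPM against 1.87 to 9.12 TPM. Jchain spanned 0.38 to 16.8 TPM against 0.19 to 0.91 TPM. Within a batch the upper and lower libraries did not overlap in Igkc, but in Ighm they overlapped in both batches. In batch 1 the upper HET replicate 3 had 3.70 TPM of Ighm and the lower HET replicate 4 had 4.97. In batch 2 the upper WT replicate 7 had 9.01 TPM and the lower WT replicate 9 had 9.12. Jchain of WT replicate 7 lay below every lower library of its batch.

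The genotype label was not used by the ranking. Of the upper 12 libraries 6 were HET, where 6.5 would fall there if genotype were placed at random within batches, and the exact two-sided permutation test gave p = 1. Library totals were 29551543 to 33020033 counts in batch 1 and 36380502 to 50746817 in batch 2, and 23945 to 25361 genes had a count. In 3 libraries Nbl1 and its neighbour Htr6 went against the label. The library labelled HET replicate 6 had 0 counts of Htr6 and 299 of Nbl1, the library labelled WT replicate 1 had 26 and 177, and the library labelled WT replicate 2 had 14 and 115. The other WT libraries had 0 to 2 counts of Htr6 and the other HET libraries 8 to 49. The first and second of these 3 belong to the upper group and the third to the lower group of batch 1, so counts are also given without them.

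Other antibody RNA showed which antibody classes made up the upper libraries. The table holds 395 genes of the immunoglobulin loci, of which 348 are variable genes, the segments that give each antibody its target. Since they are parts of the same transcripts as the ranking genes or come from the same cells, their values are a description. Without Igkc and Ighm, which made the division, they summed to 4.87, 14.6 and 156 CPM (counts scaled to the library size, lowest, median and highest) in the upper libraries and 3.07, 5.09 and 6.84 CPM in the lower. The upper group overlapped the lower at its bottom end.

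By counts, which were not corrected for gene length, Ighm exceeded the sum of the 4 IgG genes in 22 of the 24 libraries. The 2 exceptions were both upper libraries of batch 2. WT replicate 10 had 1610 counts of Ighm and 3070 of IgG genes, most of them Ighg2c with 1863 and Ighg2b with 1092. HET replicate 7 had 719 counts of Ighm and 820 of IgG genes, led by Ighg1 with 456. The class that led by counts thus differed between these kidneys. HET replicate 13, with the highest score, had 4787 counts of Ighm and 732 of Ighg2c, and WT replicate 1 had 3997 counts of Ighm and 524 of Ighg2b. WT replicate 8 had 2590 counts of Ighm beside 173 of IgG genes. Over all libraries the IgG genes summed to 11 to 3070 counts in the upper group, with a median of 56, and to 2 to 50 in the lower, with a median of 13.5. The upper libraries HET replicate 8, WT replicate 6, WT replicate 7, WT replicate 5 and HET replicate 1, at 11 to 47 counts, lay inside the range of the lower ones. Ighg2b was the one IgG gene with enough counts to be fitted, and it reached them mainly through the upper libraries. It had 5 to 1092 counts there, with a median of 44.5, and 1 to 18 in the lower libraries, with a median of 4. Its log2 fold change of 4.41 (SE 0.99) is thus a description, and in batch 2 alone it was not fitted.

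Igha, the heavy chain of IgA, had 56 to 535 counts in the upper and 18 to 88 in the lower libraries, with medians of 104 and 45.5 and a log2 fold change of 1.48 (SE 0.34). Ighd, the heavy chain of IgD carried by resting B cells, ran from 0.257 to 1.33 CPM in the upper and from 0.545 to 0.901 CPM in the lower libraries of batch 1, which overlapped. In batch 2 it ran from 1.14 to 1.55 against 0.472 to 1.04 CPM, with no overlap, and its log2 fold change was 0.03 in batch 1 and 0.79 in batch 2. Ighe, the heavy chain of IgE, was found in WT replicate 10 and HET replicate 7 alone, at 5 and 4 counts.

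Variable genes with at least 3 counts numbered 4 to 98 in the upper libraries, with a median of 29, and 3 to 14 in the lower, with a median of 7.5. The leading variable gene held 8.68% to 21.0% of the variable counts in an upper library and 6.76% to 15.2% in a lower one. No single variable gene therefore made up the bulk in any library. Near-identical variable genes can share reads, and the sources used here do not say how the authors' counting split them. Igkv4-55 led in WT replicate 1 and in WT replicate 8, Iglv1 in HET replicate 13, Igkv4-68 in WT replicate 10 and Ighv1-34 in HET replicate 7. None of the 348 variable genes had enough counts to be tested.

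**Figure D2:**
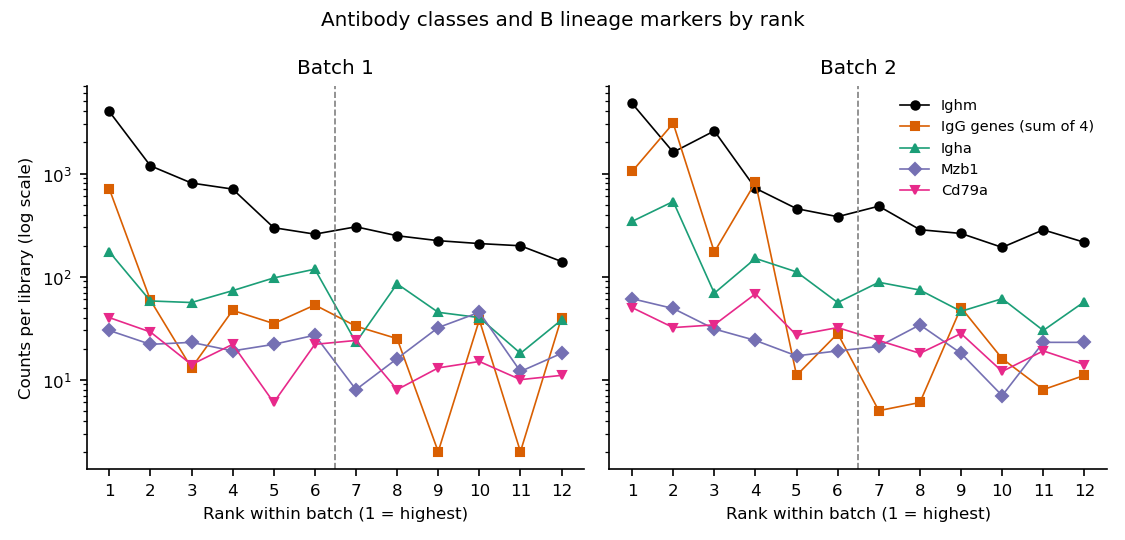
Counts per library (log axis) of Ighm, of the 4 IgG genes summed, of Igha, of the secretory cell gene Mzb1 and of the B cell gene Cd79a, by rank within each batch. The IgG sum exceeds Ighm in the libraries ranked 2 and 4 of batch 2 (3070 and 820 counts), while Mzb1 spans 17 to 61 counts in the upper and 7 to 45 in the lower libraries.

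The markers of plasma cells other than antibody RNA were divided between higher and lower, and none passed the threshold over the 24 libraries. Tnfrsf17, the survival receptor of plasma cells, had 0 to 3 counts in the upper and 0 to 2 in the lower libraries. Mzb1, which helps antibody assembly in the endoplasmic reticulum, had a log2 fold change of 0.37 (SE 0.23), and Derl3, a factor of protein disposal in secretory cells, one of -0.16 (SE 0.28). Xbp1 and Irf4, regulators of the plasma cell state that kidney cells and other leukocytes can also express, stood at -0.09 and -0.03. Of 17 tested genes of the plasma cell list, 9 were higher and 8 lower in the upper libraries, with a median log2 fold change of 0.00, and 12 of 17 were higher in batch 2 and 8 of 17 in batch 1. At an unadjusted p under 0.05 there were 4 higher and 2 lower, beside 6.47% and 8.42% of all genes tested. The higher ones were Pou2af1, Slamf7, Prdm1 and Tnfrsf13b, a receptor of B lineage survival factors (0.37, SE 0.17), and the lower ones the elongation factors Eaf2 (-0.20) and Ell2 (-0.14). Mzb1 stood at 0.19 in batch 1 and 0.62 in batch 2. Sdc1, which encodes CD138, stood at 0.12 (SE 0.06), with -0.02 in batch 1 and 0.27 in batch 2. The list mixes scarce and abundant genes. Hsp90b1 and Pdia4, also on the ER folding list, averaged 504 and 115 CPM and Xbp1 96.5 CPM. Mzb1, Derl3, Tnfrsf13b and Pou2af1 averaged 0.69, 0.51, 0.85 and 0.40 CPM. The even division of the list is thus not a measure of plasma cells, whose number was not tested. Naming Tnfrsf13b, Eaf2, Ell2, Hsp90b1 and Pdia4 was decided on seeing these values. For want of such a measure, the upper libraries are called here kidneys high in immunoglobulin RNA, and not kidneys high in plasma cells.

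Within that list Pou2af1, a coactivator of immunoglobulin promoters in B lineage cells, spanned 0.165, 0.372 and 1.07 CPM in the upper and 0.0606, 0.234 and 0.378 CPM in the lower libraries. Its log2 fold change was 1.15 (SE 0.31) with an adjusted p of 0.137 by edgeR's quasi-likelihood test, at 0.42 in batch 1 and 1.83 in batch 2. Prdm1, the repressor that ends the B cell programme, stood at 0.28 (SE 0.09, edgeR adjusted p = 0.192), and Slamf7, a surface receptor of plasma cells and other leukocytes, at 0.35 (SE 0.11, edgeR adjusted p = 0.161). None of these 3 passed the threshold of 0.05.

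Across all genes other than the 3 ranking genes, the division went with small differences. Of 18127 genes tested with batch and genotype label as covariates, 1 passed an adjusted p of 0.05 (0.00552%), and it was lower in the upper libraries. At an adjusted p under 0.1 there were 33 genes (0.182%), 17 higher (0.0938%) and 16 lower (0.0883%). Unadjusted p-values under 0.05 were reached by 2699 genes (14.9%), of which 1172 were higher (6.47%) and 1527 lower (8.42%). Log2 fold changes were above 0 for 45.3% of the genes tested, and their median was -0.01.

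Kbtbd8 was the gene that passed. It encodes an adaptor with BTB and kelch domains for a cullin-3 ubiquitin ligase and lies on chromosome 6 at 95117240 to 95129790 (GRCm38). It fell from 5.43 ± 0.70 CPM in the lower to 3.87 ± 0.91 CPM in the upper libraries (SD, n = 12 each), a fold of 0.703 with a 95% interval of 0.626 to 0.790 and an edgeR adjusted p of 0.0385. The upper libraries spanned 2.81, 3.54 and 5.50 CPM and the lower 4.32, 5.72 and 6.63 CPM. All 12 upper libraries lay below the median of the lower libraries of their own batch.

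In batch 2 the Kbtbd8 groups did not overlap, as in 228 lower genes of that batch (1.26%), and in batch 1 they overlapped. The log2 fold changes were -0.33 (SE 0.12) in batch 1 and -0.67 (SE 0.10) in batch 2. In batch 1 the groups stayed apart in 11 higher genes (0.0607%) and 18 lower ones (0.0993%), and no gene did so in both batches. The Kbtbd8 call was lost without the 3 libraries that go against their label, where the edgeR adjusted p was 0.212 and 0 genes passed. It was also lost in 17 of 24 fits that left out 1 library, in which no gene passed. It held without HET replicate 3, 4, 9 or 11 or WT replicate 5, 6 or 9, and over the 24 fits its edgeR adjusted p ran from 0.00538 to 0.143.

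**Figure D3:**
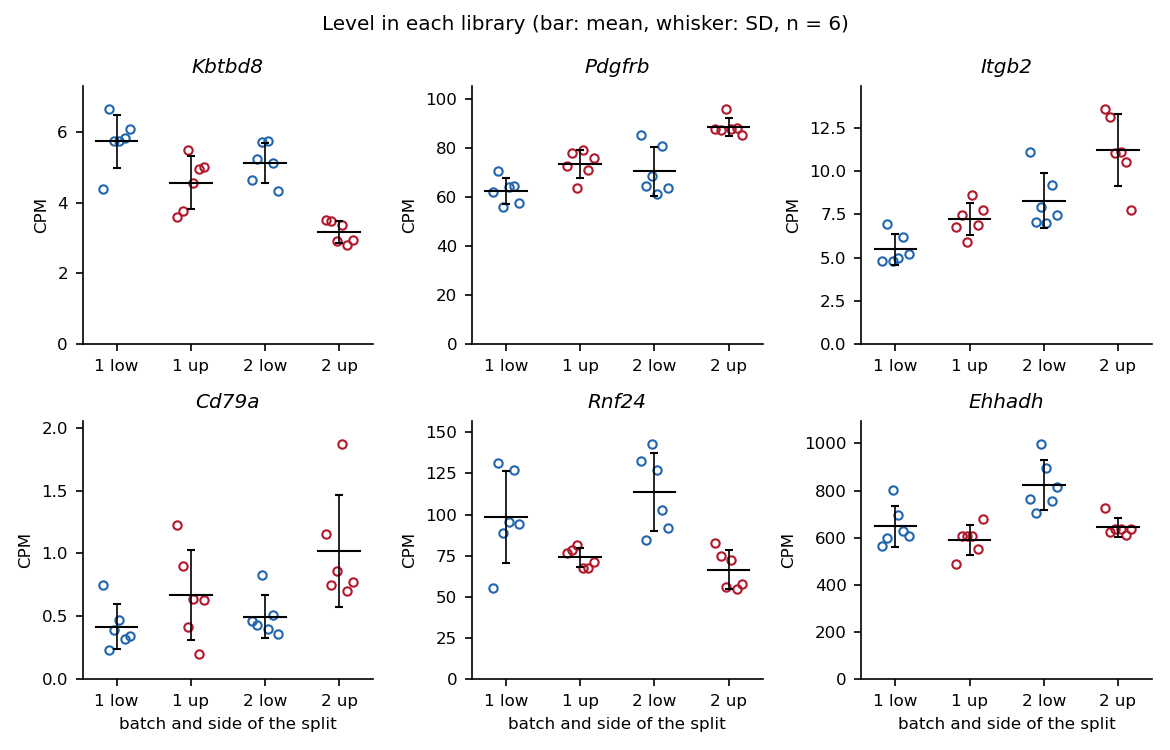
Level in CPM of 6 genes in each library, by batch and side of the division (blue lower, red upper), with the mean and SD of 6 libraries. Kbtbd8 is apart in batch 2 and overlaps in batch 1. Pdgfrb and Rnf24 are also apart in batch 2 only, Pdgfrb barely so (85.37 against 85.31 CPM). Itgb2, Cd79a and Ehhadh overlap in both batches.

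None of the 15 higher genes ranked first by p passed the threshold (edgeR adjusted p of 0.066 to 0.0995). Pdgfrb, the platelet-derived growth factor receptor of pericytes and fibroblasts, spanned 63.8, 82.3 and 95.8 CPM in the upper and 55.8, 64.2 and 85.3 CPM in the lower libraries. In batch 2 its groups did not overlap, as in 96 higher genes (0.53%), but they nearly met. The lowest upper library there was WT replicate 7, at 85.37 CPM, and the highest lower one WT replicate 9, at 85.31 CPM. Its log2 fold change was 0.28 (SE 0.05, edgeR adjusted p = 0.066). Notch3, a receptor of vascular mural cells, stood at 0.27, Islr, a gene of mesenchymal cells, at 0.35, and Tgfbi, a matrix protein induced by TGF-beta, at 0.29.

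Itgb2, the shared beta chain of leukocyte integrins, spanned 5.92 to 13.6 CPM in the upper and 4.78 to 11.1 CPM in the lower libraries. Every upper library was above the lower median of its batch, although the groups overlapped in both. Its log2 fold change was 0.42 (SE 0.09, edgeR adjusted p = 0.0946), and it was 0.39 in batch 1 and 0.44 in batch 2. Pirb, an inhibitory receptor of myeloid and B cells, stood at 0.39 and Stk10, a kinase of lymphocytes, at 0.27.

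The other higher genes were Egflam, an extracellular matrix protein, at 0.28, Atp2a3, a calcium pump, at 0.26, Ptp4a3, a phosphatase, at 0.27, and Lims2, a focal adhesion adaptor, at 0.22. Zfyve21 stood at 0.21, Ehd4, a factor of endocytic recycling, at 0.16, and Tuba1b, an alpha-tubulin, at 0.15. Hcar1, the lactate receptor known from fat cells, differed most between batches on this side, at 0.15 in batch 1 and 0.90 in batch 2. All 15 genes had the same sign in both batches, which the ranking by p over both batches favours.

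On the lower side, Rnf24, a RING finger protein, spanned 54.5, 71.9 and 82.9 CPM in the upper and 55.3, 99.3 and 143 CPM in the lower libraries. In batch 2 its groups did not overlap. Its log2 fold change was -0.60 (SE 0.13, edgeR adjusted p = 0.0995). Adgrg3, an adhesion receptor, stood at -0.35.

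The remaining genes on the lower side had log2 fold changes of -0.22 to -0.12 and none passed. Pcf11 and Scaf4 act at the end of transcription and stood at -0.22 and -0.12. Esco1 acetylates cohesin (-0.21), Trnt1 adds the CCA end to transfer RNA (-0.18), Epc1 belongs to a histone acetyltransferase complex (-0.18) and Atf1 is a factor of the CREB family (-0.16). Nedd4l, the ubiquitin ligase that limits the epithelial sodium channel, stood at -0.17 and Mpp5, an organiser of epithelial polarity, at -0.20. Sgms2, a sphingomyelin synthase, stood at -0.18, Tmem87b at -0.15, Zmym2 at -0.13 and Ubap1, of the endosomal sorting machinery, at -0.12. By limma on log2(TPM + 1) Scaf4 and Ubap1 both stood at 0.02, with the sign turned.

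**Figure D4:**
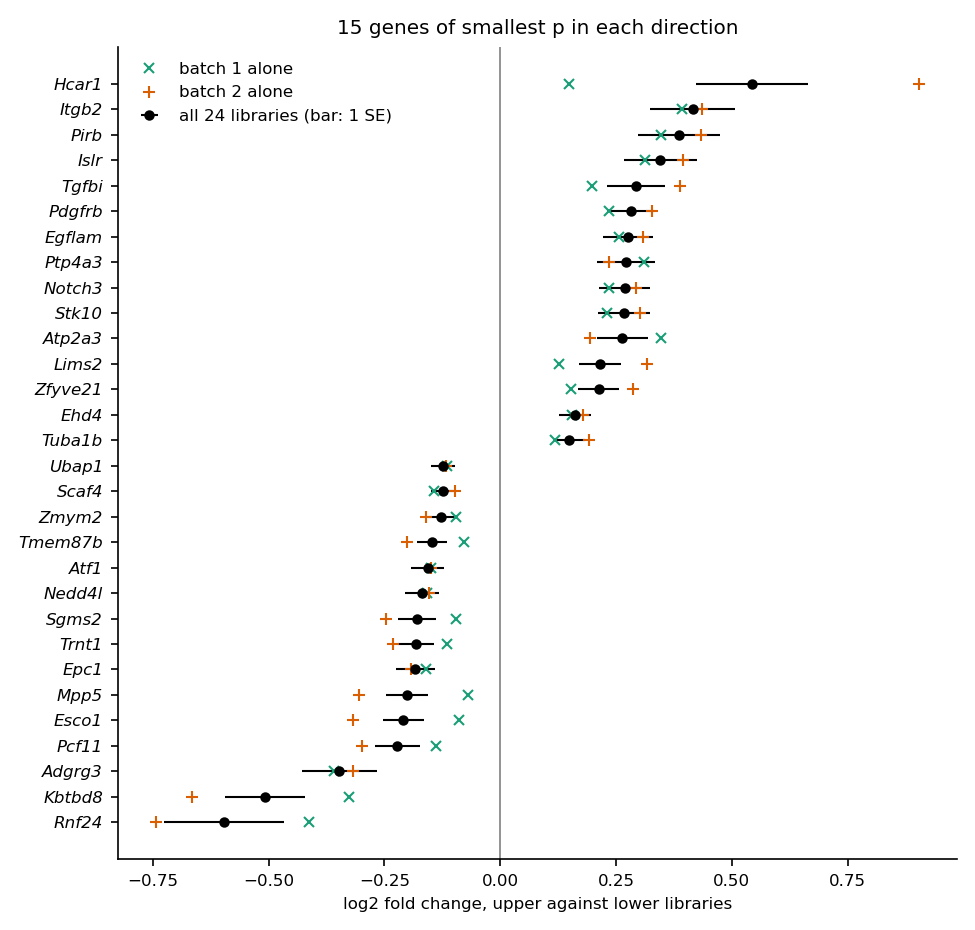
Log2 fold change of upper against lower libraries for the 15 genes ranked first by p on each side: black points with 1 SE are the fit to 24 libraries, crosses batch 1 alone and plus signs batch 2 alone. Kbtbd8, at -0.51, is the only one past an adjusted p of 0.05, and Hcar1 has the widest gap between batches (0.15 and 0.90).

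By DESeq2 the same design called 145 genes (0.993% of the 14609 it adjusted), 77 higher (0.527%) and 68 lower (0.465%), and all 30 genes above were among them. Of the listed genes it also called Ighg2b (4.25) and Igha (1.47), which belong with the description of antibody genes, and Itgax, C3ar1, Pdgfra, Vim and Mki67 higher and Ehhadh lower. Vim, the intermediate filament of mesenchymal cells and leukocytes, stood at 0.23 (SE 0.06, DESeq2 adjusted p = 0.0388). DESeq2 and edgeR thus gave the genes a like size and differed in how many passed.

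Genes of B cells stood higher in the upper libraries in most cases, without any passing the adjusted threshold. Of 21 tested B cell genes, 19 had a log2 fold change above 0 and 9 had an unadjusted p under 0.05, all higher. Their median was 0.32, beside -0.01 for all genes, and it was 0.09 in batch 1 and 0.49 in batch 2. Of all genes tested, 45.3% were above 0 and 6.47% were higher at an unadjusted p under 0.05. Cd79a, the signalling chain of the B cell receptor, spanned 0.198, 0.762 and 1.87 CPM in the upper and 0.23, 0.415 and 0.825 CPM in the lower libraries. The groups overlapped, and its log2 fold change was 0.89 (SE 0.23, edgeR adjusted p = 0.128).

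Ms4a1, which encodes CD20 and averaged 0.65 CPM, stood at 0.64 (SE 0.24) with 0.61 in batch 1 and 0.67 in batch 2. Cd22, an inhibitory receptor of B cells, stood at 0.66 (SE 0.22), with 0.01 in batch 1 and 1.24 in batch 2. In batch 1, Cd22 was thus near level where Cd79a, at 0.69, and Ms4a1 were not, and none of the 3 passed the threshold there. Other genes of the list were below 0 in batch 1, among them Pax5 (-0.31), Fcmr (-0.17) and Cd37 (-0.12), named after their values were seen. Of 20 list genes tested in that batch, 14 were above 0.

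T cell, macrophage and antigen-presentation genes leaned the same way, and again none passed. For comparison, 6.47% of all genes tested were higher at an unadjusted p under 0.05. Of 21 tested T cell genes 20 were above 0 and 7 had an unadjusted p under 0.05, with a median of 0.35. Lck, the kinase of T cell receptor signalling, stood at 0.38 (SE 0.14) and Cd247, a chain of that receptor, at 0.57 (SE 0.21). Cd3e, the defining subunit of the receptor, stood at only 0.16 (SE 0.18). Cd247 and Cd3e averaged 0.59 and 0.85 CPM. All 19 tested macrophage genes were above 0, 12 of them at an unadjusted p under 0.05, with a median of 0.29. Cx3cr1, the fractalkine receptor, stood at 0.44 (SE 0.13) and Ly86 at 0.31 (SE 0.11), while Adgre1, which encodes the marker F4/80, stood at 0.16 (SE 0.12).

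Among 11 dendritic cell genes 10 were above 0, with a median of 0.30. Itgax, which encodes CD11c, stood at 0.40 (SE 0.10, edgeR adjusted p = 0.104) and Irf8, a regulator of dendritic cells and B cells, at 0.23. All 9 MHC class II genes were above 0, with a median of 0.20. At an unadjusted p under 0.05, 7 of them were higher, beside 6.47% of all genes tested. Nkg7 and Ccl5, of cytotoxic lymphocytes, stood at 0.56 and 0.41, at means of 0.45 and 1.26 CPM. The neutrophil list was split, with 3 of 6 genes above 0.

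Genes of lymphoid aggregates and of B cell attraction were less uniform. In the lymphoid list 9 of 10 tested genes were above 0, with a median of 0.22. Ltb, a lymphotoxin chain needed for lymphoid tissue, stood at 0.65 (SE 0.21), at a mean of 0.74 CPM. Ccl19, a chemokine of the T cell zone, stood at 0.36, and Ccl21a at 0.27; both symbols cover near-identical gene copies that can share reads. Glycam1 and Chst4, which mark the vessels of lymph nodes, were at or near 0, at no more than 0.0824 and 0.0299 CPM in any library. In the B lineage attraction list 6 of 10 genes were above 0. Cxcl12, the chemokine that holds plasma cells in bone marrow, stood at 0.20 and the integrin Itga4 at 0.21.

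Complement genes leaned higher, with 12 of 14 above 0, 7 of them at an unadjusted p under 0.05, and a median of 0.16. The share of all genes tested that were higher at that p was 6.47%. C3ar1, the receptor of the fragment C3a, stood at 0.52 (SE 0.14, edgeR adjusted p = 0.138), and C1ra, a protease of the classical pathway, at 0.17. Of 15 chemokines and cytokines 13 were above 0, led by Ccl8, a monocyte chemokine, at 0.98 (SE 0.23, edgeR adjusted p = 0.104). Ccl8 was scarce, at a mean of 0.52 CPM. Interferon response genes were above 0 in 12 of 16, with a median of 0.10. Fcer1g, the signalling chain of antibody receptors, stood at 0.29 and Fcgr1, a high-affinity IgG receptor, at 0.23, and Pigr, which carries IgA and IgM across epithelia, stood at -0.05.

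Fibrosis genes were higher in 22 of 26 cases, 13 of them at an unadjusted p under 0.05, beside 6.47% of all genes tested. Their median was 0.16, with 0.17 in batch 1 and 0.15 in batch 2. Pdgfra, a receptor of interstitial fibroblasts, stood at 0.22 (SE 0.05, edgeR adjusted p = 0.104). Col1a1, the main chain of fibrillar collagen, stood at 0.23 (SE 0.11), and ran from 117 to 206 CPM in the upper and from 112 to 186 in the lower libraries. Of 15 endothelial genes 14 were above 0, with a median of 0.09. Cell cycle genes were above 0 in 17 of 18, with a median of 0.30 in batch 1 and 0.05 in batch 2. Mki67, the proliferation marker, stood at 0.36 (SE 0.11).

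Of the nephron genes none passed, and the defining markers had log2 fold changes near 0. Nphs1, the slit diaphragm protein nephrin of podocytes, stood at 0.01 (SE 0.04), Lrp2, the megalin of the proximal tubule, at -0.02 (SE 0.04) and Umod, the uromodulin of the thick ascending limb, at -0.04 (SE 0.04). Those markers were detected in every library of both groups. Some other members lay further below 0. In the proximal tubule list 12 of 20 genes were below 0, 3 of them at an unadjusted p under 0.05. Beside these lists, 54.7% of all genes tested were below 0, and 8.42% were lower at that p. Kap, an androgen-regulated protein, and the transporter Slc7a13 both stood at -0.16 (SE 0.06). In the collecting duct list 9 of 14 were below 0, and Foxi1, the regulator of intercalated cells, stood at -0.28 (SE 0.09, edgeR adjusted p = 0.191). In the podocyte list 7 of 16 were below 0 and 9 above, with a median of 0.00. Its 2 members of smallest p went opposite ways. Col4a4, a type IV collagen chain of the glomerular filter, stood at -0.08 (SE 0.03) and Nes at 0.09 (SE 0.04). Of 18 tubular injury genes 14 were above 0 with a median of 0.07, and Havcr1, the injury marker KIM-1, ran from 19.2 to 64.7 CPM in the upper and from 19.6 to 85.8 CPM in the lower libraries.

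Some tubular lists leaned lower by small amounts. All 12 genes of the loop of Henle and distal tubule were below 0, with a median of -0.07 that was -0.02 in batch 1 and -0.10 in batch 2. At an unadjusted p under 0.05, 4 of them were lower, beside 8.42% of all genes tested. Calb1, a calcium-binding protein of the distal tubule, stood at -0.27 and Egf, made in the same segments, at -0.13. Of 17 fatty acid oxidation genes 14 were below 0, with a median of -0.07. Ehhadh, a peroxisomal enzyme of that pathway, spanned 490, 617 and 724 CPM in the upper and 563, 731 and 996 CPM in the lower libraries, with a log2 fold change of -0.24 (SE 0.06, edgeR adjusted p = 0.136). All 20 respiratory chain genes were below 0, yet 17 of these were above 0 in batch 1.

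**Figure D5:**
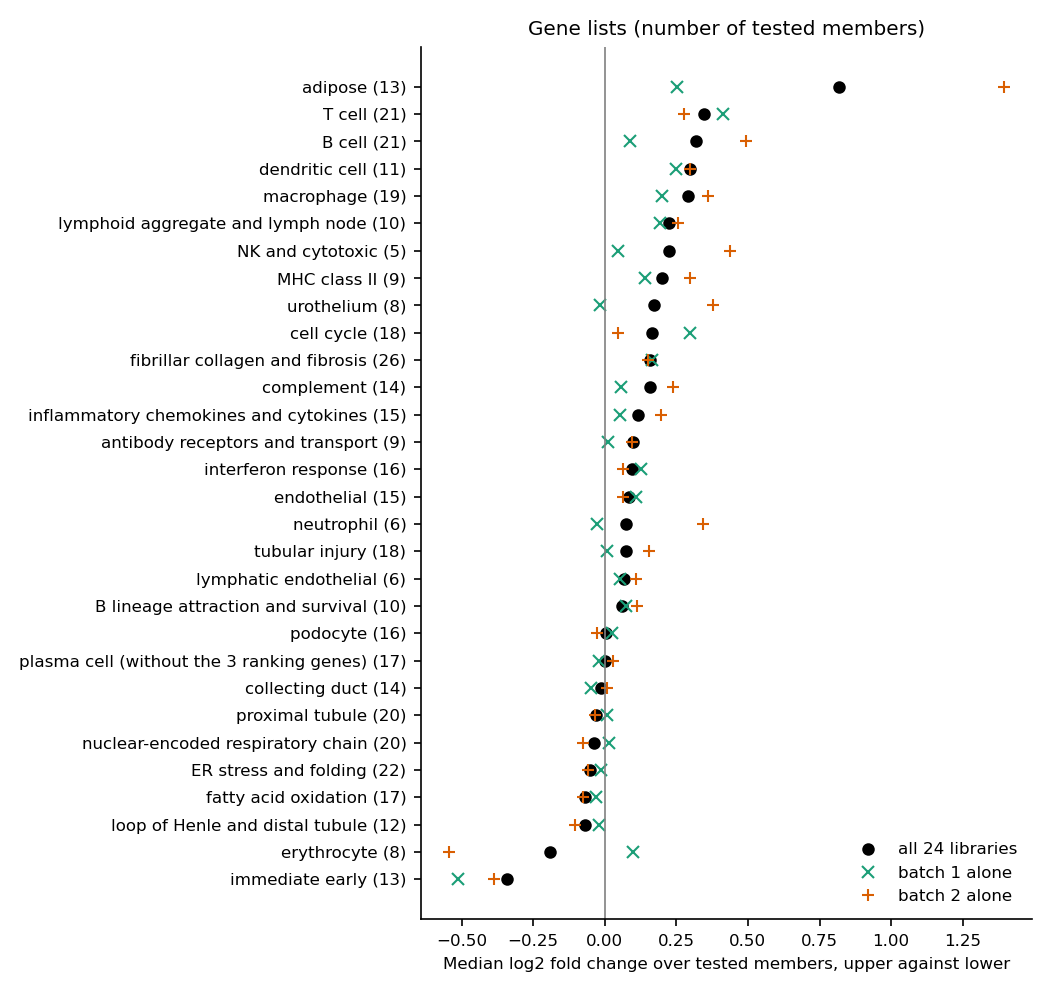
Median log2 fold change over the tested members of each list (number in brackets), for 24 libraries (black points), batch 1 (crosses) and batch 2 (plus signs). T cell, B cell, dendritic cell and macrophage lists lie between 0.29 and 0.35, nephron lists near 0, and the adipose list at 0.82 with 0.25 in batch 1 and 1.39 in batch 2.

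Lists of fat, blood and immediate early genes had medians away from 0, but none of their genes passed the threshold. All 13 tested adipose genes were above 0, though none had an unadjusted p under 0.05. Summed over the list they reached 257 to 589 CPM in the upper and 176 to 378 CPM in the lower libraries of batch 2, and 124 to 455 against 119 to 471 CPM in batch 1. Adipoq, the fat cell hormone adiponectin, spanned 0.0583, 9.59 and 16.2 CPM in the upper and 0.273, 1.70 and 14.4 CPM in the lower libraries. Mitochondrial genes took 8.82% to 9.90% of counts in the upper and 9.84% to 12.2% in the lower libraries of batch 2, and 7.58% to 9.70% against 7.51% to 8.86% in batch 1.

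All 8 tested erythrocyte genes were below 0, with a median of -0.19 that was 0.10 in batch 1 and -0.54 in batch 2. They summed to 255 to 601 CPM in the upper and 215 to 1047 CPM in the lower libraries. Of 13 immediate early genes, which respond to handling and stimulation within minutes, 11 were below 0, with a median of -0.34, and they summed to 96.8 to 589 against 122 to 1251 CPM. Of 22 genes of ER stress and folding 19 were below 0, with a median of -0.05. Its 2 members of smallest p went opposite ways, with Trib3 at 0.56 (SE 0.19) and Atf4 at -0.14 (SE 0.05). They averaged 0.60 and 53.8 CPM. The groups overlapped in each of these list sums. The part of fat, blood, immediate early and mitochondrial RNA in the differences above was not tested.

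Taken alone, batch 1 gave 0 calls by edgeR, with 780 of 18491 genes at an unadjusted p under 0.05 (4.22%), and batch 2 gave 67 calls, 31 higher (0.175%) and 36 lower (0.203%), of 17703 genes (0.378%), where 3544 had an unadjusted p under 0.05 (20.0%). By edgeR the interaction of division and batch reached an adjusted p of 0.275 at best, hence 0 calls. Before adjustment, the edgeR p of this interaction was below 0.05 for 2067 genes (11.4%). DESeq2 called 38 genes for the interaction (0.582% of the 6529 genes it adjusted). Whether single genes were called as differing between the batches thus depended on the method. Among the listed genes called in batch 2 alone were Pou2af1 at 1.83, Cd22 at 1.24, the complement gene C2 at 0.26 and Ehhadh at -0.31.

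Which genes passed changed when 2 libraries at the division in batch 2 traded places, and also when single libraries were left out. Ranking by CPM in place of TPM exchanged WT replicate 7 and WT replicate 9, and the edgeR test then called 79 genes higher (0.436%) and 3 lower (0.0165%), 82 in all (0.452%), without Kbtbd8, whose adjusted p was 0.0644. This test was added after the data were examined. Among the listed genes called higher there were Pdgfrb (0.28), Pdgfra (0.23), Vim (0.27), Col6a3 (0.25), Cx3cr1 (0.55), Mrc1 (0.40), C1qa (0.39), Ly86 (0.41), Itgax (0.45), H2-Aa (0.30), Thy1 (0.51), C3ar1 (0.58), C1ra (0.20), Ccl8 (1.05), Itga4 (0.30), Ccl21a (0.38), Igha (1.51), Top2a (0.38) and Mki67 (0.45). Itga4 belongs to the list of B lineage attraction, Ccl21a to those of lymphoid aggregates and lymphatic vessels, and Igha to the antibody genes. No gene of the B cell list was among the calls. Without the 3 libraries that go against their label, the TPM ranking kept medians of 0.30 for B cell, 0.36 for T cell, 0.30 for macrophage and 0.16 for fibrosis genes, with 0 calls.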

How the data were processed

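The authors deposited 1 table of 55487 genes with expected counts, TPM and FPKM for each library. STAR, fastp and featureCounts on GRCm38 are named in the submitters' processing notes, without versions, strand or annotation. Between 11.8% and 15.4% of a library's expected counts, as deposited, were fractional, and all were rounded. The TPM values deposited by the authors ranked the libraries, with a pseudocount of 1, and served in a limma alternative; FPKM as deposited was not used. All per-sample columns had a sample. The title of HET replicate 8, an upper library, names another animal number than its library name does; its column was assigned by the library name. Coordinates came from GENCODE M21, in which 55141 identifiers were found.

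Genes were kept by filterByExpr (minimum count of 10) of edgeR 4.0.16 in R 4.3.3 and scaled by TMM, to which all CPM refer. The upper libraries were compared with the lower by edgeR's robust quasi-likelihood test with batch and genotype label as covariates. P-values were adjusted by Benjamini-Hochberg over 18127 genes, without the 3 ranking genes, at 0.05, and intervals are at 95%. Standard errors came from the F statistic. The interaction with batch was tested likewise. DESeq2 1.42.0, limma 3.58.1, other scalings, filters, covariates and divisions, single batches and leaving out libraries were alternatives. The test was tried on simulated counts.

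The division, its members and the 34 gene lists were chosen with earlier results of these data known. Named genes were taken from the 15 with the lowest p on each side among genes averaging 1 CPM or more, outside the immunoglobulin loci and unnamed gene models. They were also taken from the 2 members of smallest p in each list, defining markers and cell type markers. Some of those list members are not printed. The rule also took the most abundant member of each list and members of lists with fewer than 5 tested genes; after the data were examined these were left out of the text for every list. A defining marker that the rule takes is not reported here and stays in its list. Calls under other settings were named after their values were seen.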

Additional observations from a re-analysis of the deposited data

Results flagged for a closer look

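In groups of 6 libraries (one side of the division in 1 batch), 26 of 276 tests found the highest or lowest library further from its nearest neighbour than Dixon's 95% value of 0.625 of the range allows. Chance alone flags about 1 in 20 groups. Values are log2 CPM, of a gene or of the sum over a list, unless stated.

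Libraries at the division of batch 2 account for several of these. WT replicate 9 was highest of the lower libraries for B lineage attraction (8.37), chemokines and cytokines (11.05), tubular injury (11.35) and Tgfbi (5.25). The chemokine and injury lists share Spp1, which averaged 1132 CPM, and the attraction and injury lists share Vcam1. The flags of these lists are thus not independent. WT replicate 7 was lowest of the upper libraries for MHC class II (9.03), complement (10.35) and Pirb (2.35).

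Among the other upper libraries of batch 2, WT replicate 10 was lowest for skeletal muscle genes (1.73), HET replicate 7 highest for erythrocyte genes (9.23) and WT replicate 8 highest for Pdgfrb (6.58). Among the lower libraries, WT replicate 11 was lowest for mast cell genes (4.25), HET replicate 12 highest for immediate early genes (8.48) and HET replicate 9 lowest for Egflam (3.45).

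In the upper libraries of batch 1, WT replicate 1, whose Nbl1 and Htr6 go against its label, had the highest mitochondrial share (9.70%), the highest level of the immunoglobulin constant genes (4.98) and the lowest of fatty acid oxidation (12). WT replicate 5 was highest for the plasma cell list (9.80) and the ER folding list (11.99). Both lists hold Hsp90b1 and Pdia4, which averaged 504 and 115 CPM, so these flags are not independent. HET replicate 1 was highest for complement (10.36), WT replicate 6 lowest for lymphatic (5.66) and adrenal genes (1.15), and HET replicate 6 lowest for Esco1 (4.64). In the lower libraries of batch 1, WT replicate 4 was highest for B lineage attraction (8.12) and MHC class II (8.94) and lowest for the respiratory chain (12.56), and HET replicate 4 lowest for Kbtbd8 (2.13).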

How the results depend on the processing

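The 1 call among all genes became 145 by DESeq2 (77 higher, 68 lower; 0.993% of the 14609 genes it adjusted), 0 by limma on log2(TPM + 1), 4 with no filter, 2 without the genotype label, 2 with the library total as covariate, 3 with the continuous score, 2 with the upper 4 against the lower 4 of each batch, 0 in batch 1, 67 in batch 2 and 0 without the 3 libraries that go against their label. It became 82 with the ranking by CPM and 0 without the 3 libraries of highest score in batch 2, both chosen after seeing the data. Leaving out 1 library at a time gave 0 to 58 calls, with 58 without WT replicate 6 and 23 without WT replicate 9. Genes at an unadjusted p under 0.05 numbered 1545 with the continuous score and 780 in batch 1, and the interaction with batch gave 38 calls by DESeq2. RLE scaling and a minimum count of 30 gave 1 call each, Kbtbd8. By edgeR or limma, Kbtbd8 missed the threshold with limma (adjusted p = 0.175), the continuous score (0.263), the upper 4 against the lower 4 (0.0623), batch 1 (1.00), the CPM ranking (0.0644), without the 3 libraries in doubt (0.212) and without the 3 of highest score in batch 2 (0.287). Its call held without HET replicate 3, 4, 9 or 11 or WT replicate 5, 6 or 9 and was lost without any other single library; the cause was not tested.

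Signs turned for genes near 0. None was called in the fit where its sign turned, but Scaf4 and Ubap1 were called lower by DESeq2, Scaf4 also without WT replicate 6 and Ubap1 without WT replicate 9. With limma on log2(TPM + 1), where the median of all genes was 0.07, log2 fold changes were 0.0216 for Scaf4, 0.0206 for Ubap1, 0.00408 for Col4a4, 0.024 for Scnn1a, 0.0233 for Ndufa1, 0.0474 for Ndufb8, 0.0748 for Lrp2, 0.0472 for Umod, 0.0441 for Pigr, 0.0198 for Irf4 and 0.0235 for Xbp1. In batch 1 they were -0.0378 for Csf3r, -0.0137 for Krt8, 0.0834 for Alas2, 0.11 for Hbb-bt, -0.0298 for Upk3a, 0.00202 for Ndufa1, 0.0165 for Acadm, 0.00251 for Lrp2, 0.0217 for Umod, -0.00497 for Col4a5 and -0.0249 for Sdc1. In batch 2 they were 0.0289 for Derl3, 0.0399 for Pigr and 0.0300 for Irf4. The continuous score gave 0.0956 for Derl3, -0.0134 for Nphs1 and 0.0893 for Irf4, the library total as covariate -0.00199 for Nphs1 and 0.00849 for Irf4, the upper 4 against the lower 4 -0.0239 for Nphs1 and 0.17 for Irf4, and the CPM ranking 0.0128 for Derl3, -0.0254 for Nphs1 and 0.0358 for Irf4. Leaving out 1 library at a time gave ranges of -0.00392 to 0.0317 for Nphs1, -0.0353 to 0.000563 for Lrp2, -0.0784 to 0.00621 for Pigr and -0.11 to 0.11 for Irf4.

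No paired analysis was possible because replicate numbers were given in accession order and the 2 groups come from a ranking, so no number joins an upper library to a lower one. Genes of low counts, among them most immunoglobulin genes, were limited by depth: 3 of 395 were tested.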
